A study of Mus musculus with 6 samples.

Results

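The transcription factors of the body axis and of early mesoderm were followed in neural tube organoids as a set of 10 genes, T, Nkx1-2, Tbx6, Mesp1, Eomes, Hand1, Gata6, Foxc1, Foxc2 and Snai1, chosen by symbol from 17296 gene symbols that both deposited count tables hold. All 10 were present in both tables. The organoids grew from mouse embryonic stem cells of the line Sox1::eGFP;Bra::mCherry, whose fluorescent reporters follow Sox1 and T (Brachyury), and their cells were read by droplet sequencing that counts molecules by unique molecular identifier (UMI) at the 3′ end of transcripts. Non-elongated organoids gave 1 library at day 6. Elongated organoids gave 2 at day 6 (replicate 1 from batch 1, replicate 2 from batch 2) and a single library on each of days 7, 8 and 10. Every group came from this line, grew in Matrigel and was first exposed to basic fibroblast growth factor and activin A, which were then withdrawn. For each condition 100 organoids were pooled, so the values describe pools of a single line, and whether reporter transcripts count towards T is not given in the sources used here.

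In the mouse embryo, T, Eomes and Mesp1 are active in the primitive streak and in the mesoderm that leaves it, and T stays on in the tail bud and the notochord. Nkx1-2 marks the caudal epiblast beside the streak, where progenitors of spinal cord and trunk mesoderm lie. Tbx6 directs such cells to paraxial mesoderm, Foxc1 and Foxc2 act in paraxial and head mesenchyme, Hand1 and Gata6 act in lateral, cardiac and extraembryonic lineages, and Snai1 represses epithelial genes as cells leave an epithelium.

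The 250 bases upstream of the annotated start are shown for T, Mesp1 and Tbx6, the streak and paraxial factors whose levels in a mesenchymal class are described further on. They come from RefSeq for build GRCm38.p6 and lie at chr17:8434173-8434422 on the plus strand for T, chr7:79793591-79793840 on the minus strand for Mesp1 and chr7:126781233-126781482 on the plus strand for Tbx6. Capitals mark matches on either strand to the T-box core AGGTGT or its longer form AGGTGTGA, the E-box of the Snail type with letters CAGGTG, the TCF/LEF string CTTTGAT, the string AGATAA bound by GATA factors, or the forkhead string GTAAACA.
T: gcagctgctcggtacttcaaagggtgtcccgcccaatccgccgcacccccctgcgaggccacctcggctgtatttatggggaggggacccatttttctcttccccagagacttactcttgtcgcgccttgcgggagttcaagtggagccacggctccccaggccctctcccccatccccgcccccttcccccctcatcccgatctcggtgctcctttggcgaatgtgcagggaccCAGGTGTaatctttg
Mesp1: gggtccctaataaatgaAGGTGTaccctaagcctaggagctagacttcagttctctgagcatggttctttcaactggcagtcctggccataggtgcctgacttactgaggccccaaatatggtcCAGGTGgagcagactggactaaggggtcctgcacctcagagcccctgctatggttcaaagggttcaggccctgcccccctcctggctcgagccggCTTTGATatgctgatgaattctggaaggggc
Tbx6: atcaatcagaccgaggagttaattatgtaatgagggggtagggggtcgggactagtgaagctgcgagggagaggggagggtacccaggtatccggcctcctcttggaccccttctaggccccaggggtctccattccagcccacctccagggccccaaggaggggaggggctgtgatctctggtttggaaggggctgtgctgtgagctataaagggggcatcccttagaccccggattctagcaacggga

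The T window holds an AGGTGT 14 bases before the start that overlaps a CAGGTG 15 bases before it. The Mesp1 window holds an AGGTGT 233 bases, a CAGGTG 126 bases and a CTTTGAT 31 bases before the start, and the Tbx6 window holds none of these strings. Of 32851 promoter windows of this length, 11.8% hold AGGTGT, 1.12% AGGTGTGA, 17.2% CAGGTG, 3.21% CTTTGAT, 9.99% AGATAA and 3.17% GTAAACA, and a match is a description of the letters only. Windows were taken for 7 of the 10 genes. In the GENCODE annotation of GRCm38 the T gene spans chr17:8434423-8442496, Mesp1 chr7:79792241-79793788, Tbx6 chr7:126781483-126785560, Hand1 chr11:57828705-57832818, Foxc1 chr13:31806633-31812476 and Snai1 chr2:167538195-167542814, with no other gene overlapping them. The RefSeq start of Mesp1 lies inside that span, so most of its window does too, the CAGGTG and the CTTTGAT included. Nkx1-2, at chr7:132594878-132599637, overlaps Fgfr2 on the same strand, and Foxc2, at chr8:121116171-121118895, overlaps Gm20388 on the same strand, so their counts are uncertain where both genes are transcribed. Eomes, at chr9:118478212-118486132, has an antisense gene. Gata6, at chr18:11052064-11085635, is overlapped on the other strand by 1010001N08Rik, a symbol that both count tables hold.

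The 6 libraries held 16282 cells, 2076 to 3677 in each, with 74072752 to 152742819 UMIs per library and medians of 22053 to 59014 UMIs per cell. Pairs of libraries shared 1 to 4 cell barcodes. The non-elongated library and replicate 1 lie in 1 deposited table and replicate 2 and the later days in the other, so the table and the batch of the 2 replicates cannot be told apart, and the class names differ between tables. Library levels are UMI counts scaled to a common total (CPM) with TMM scaling. Class levels are CPM of the summed UMIs, and their exact Poisson intervals cover counting error only. In a library sum, fewer cells of a type and less RNA per cell cannot be told apart.

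In the non-elongated organoids all 10 genes measured higher than in either elongated day 6 library, with Hand1 and Mesp1 furthest. Hand1 measured 6.37 CPM in non-elongated organoids, against 0.315 and 0.0991 CPM in elongated replicates 1 and 2. Mesp1 measured 8.40 CPM in non-elongated organoids, against 0.479 and 0.142 CPM in the elongated replicates. For both genes the non-elongated library lay far above the pair of elongated ones, which differed from each other by 3.18 times for Hand1 and 3.39 times for Mesp1. The log2 difference was 5.00 ± 0.71 (SE) for Hand1 and 4.81 ± 0.70 for Mesp1, each with an adjusted p of 0.132 in edgeR's quasi-likelihood test of 1 library against 2. None of 16379 genes tested passed an adjusted p of 0.05 (0% called, with 1137 at an unadjusted p under 0.05), so 0 of the 10 genes were called, although all 10 had an unadjusted p under 0.05. With RLE scaling in place of TMM the same test called 21 genes (0.128%), Hand1 and Mesp1 among them (adjusted p 0.0454 each). DESeq2 called 126 (0.949%), with adjusted p 6.47e-04 for Hand1 and 2.07e-04 for Mesp1.

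T, Eomes and Tbx6, which mark the streak and the mesoderm leaving it, followed with smaller differences. T measured 6.58 CPM in non-elongated organoids, against 2.23 and 0.517 CPM in the elongated replicates. Eomes measured 3.45 CPM in non-elongated organoids, against 0.685 and 0.234 CPM. Tbx6 measured 2.17 CPM in non-elongated organoids, against 0.616 and 0.127 CPM. In each of these the elongated replicates themselves were apart, with replicate 1 higher by 4.32 times for T, 2.93 times for Eomes and 4.84 times for Tbx6. The log2 differences of non-elongated over elongated were 2.27 ± 0.76 for T (edgeR adjusted p 0.558), 2.94 ± 0.70 for Eomes (0.344) and 2.59 ± 0.85 for Tbx6 (0.552).

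Nkx1-2 and Snai1 had the highest library levels of the set. Nkx1-2 measured 37.8 CPM in non-elongated organoids, against 17.8 and 7.95 CPM in the elongated replicates (log2 difference 1.56 ± 0.47, edgeR adjusted p 0.479). Snai1 measured 13.8 CPM in non-elongated organoids, against 6.08 and 5.66 CPM (1.24 ± 0.34, adjusted p 0.414), and its elongated replicates were the closest of the set. Gata6 measured 8.56 CPM in non-elongated organoids, against 2.36 and 1.56 CPM (2.13 ± 0.45, adjusted p 0.275). The forkhead genes were also higher in the non-elongated library than in each elongated one. Foxc1 measured 5.57 CPM in non-elongated organoids, against 2.18 and 1.24 CPM, and Foxc2 3.09 CPM, against 1.11 and 0.248 CPM. The median log2 difference of the 10 genes was 2.24, beside -0.01 over all genes tested. Against replicate 1 alone, which shares a table with the non-elongated library, the log2 differences (prior count 2) ran between 1.08 for Nkx1-2 and 4.26 for Hand1.

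**Figure D1:**
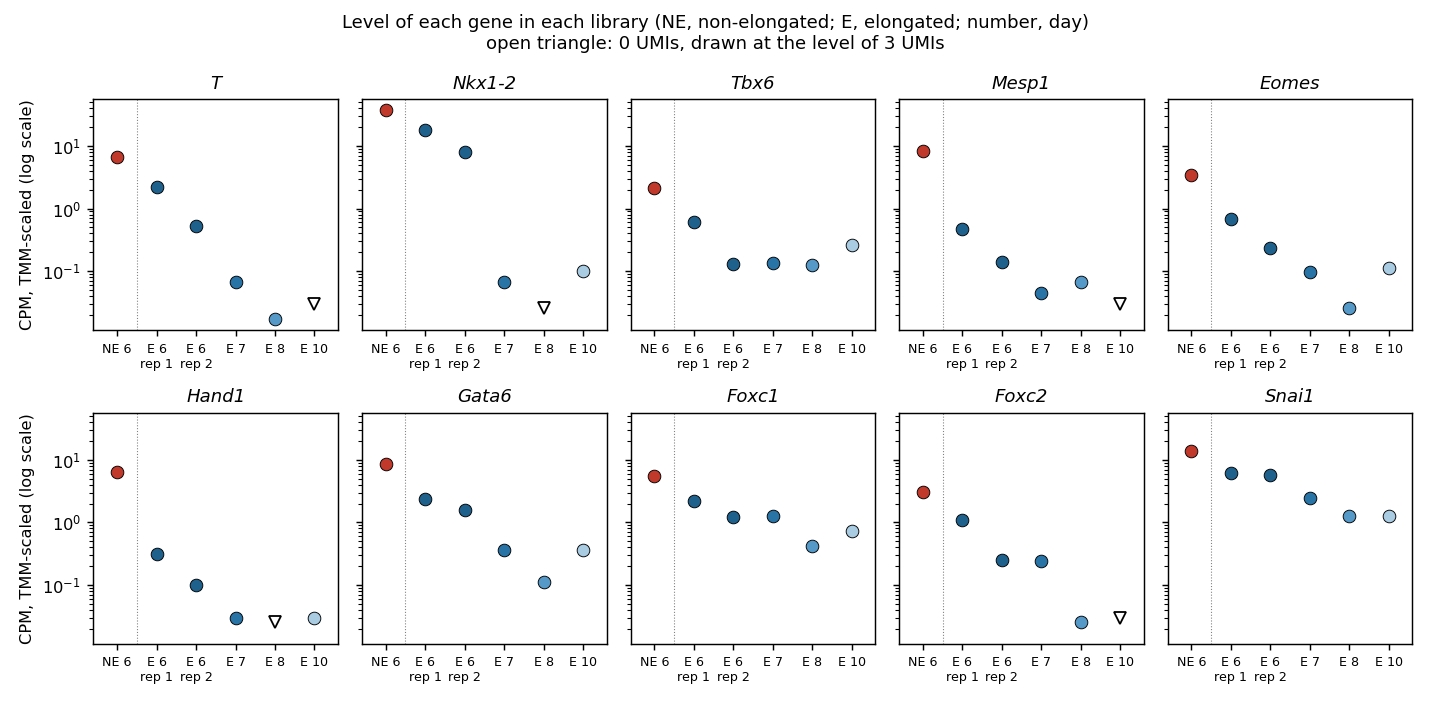
TMM-scaled CPM (log axis) of each gene in the non-elongated library (red, left of the dotted line) and in the 5 elongated libraries by day (blue), 1 point per library; open triangles mark 0 UMIs and are drawn at the level of 3 UMIs. The red point is the highest in every panel, and Nkx1-2 lies at 0.0666 CPM at day 7, against 17.8 and 7.95 CPM at day 6.

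Lists of related genes give the setting of these values. Of 12 neuromesodermal and caudal progenitor genes, 10 had a positive log2 difference in non-elongated over elongated organoids (median 0.65), as did 9 of 9 primitive streak genes tested (median 1.81). Of 11 lateral plate, cardiac and extraembryonic mesoderm genes 10 were positive (median 2.32), and of 11 paraxial mesoderm and somite genes 8 (median 0.29). None of the genes on these lists was called by edgeR. Cdx2, a caudal homeobox factor, measured 105 CPM in non-elongated organoids, against 45.0 and 7.68 CPM in the elongated replicates, and Lhx1, a factor of nascent mesoderm, 11.1 CPM, against 1.14 and 1.51 CPM. Surface ectoderm and epithelium genes moved with them (7 of 7 positive, median 2.45), and their part in the result was not tested.

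By cell class, 8 of the 10 genes had over 50% of their non-elongated UMIs in the class that the authors call Mesenchyme, which held 143 of 2225 cells (6.43%) in the non-elongated library and 17 of 2076 cells (0.819%) in elongated replicate 1. Classes were drawn from the same counts, so a level in a class is a description with no test. Of 10 genes on the mesenchyme and epithelial-mesenchymal transition list, the 143 cells held 1999 UMIs of Fn1, 1444 of Vim, 471 of Prrx2 and 444 of Twist1. These are raw counts of part of the list, with no level of another class beside them. Over whole libraries Prrx2 was lower in non-elongated organoids (33.1 CPM) than in the elongated day 6 replicates (43.8 and 46.6 CPM). Of genes that mark other types, endothelial Pecam1 had 1 UMI, crest Sox10 had 0 and endoderm Foxa2 had 2, while endothelial Etv2 had 136 UMIs in 48 cells, Sox17 19 in 6 and epithelial Krt8 1049 in 119. The share of a gene's non-elongated UMIs in this class was 95.4% for Mesp1, 84.6% for Foxc2, 84.5% for Eomes, 83.3% for Tbx6, 76.4% for Foxc1, 74.6% for Hand1, 55.6% for Gata6 and 52.5% for Snai1. T had 37.5% and Nkx1-2 0.305% of its UMIs there, so the set is not confined to mesenchyme.

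Within the non-elongated Mesenchyme class the levels ran in the order Mesp1 123 CPM, Snai1 111, Gata6 73.1, Hand1 72.9, Foxc1 65.3, Eomes 44.7, Foxc2 40.1, T 37.9, Tbx6 27.7 and Nkx1-2 1.77 CPM, where each molecule gives 1 tag whatever its length. Mesp1 and Snai1 had overlapping intervals, as did Gata6, Hand1 and Foxc1, and Eomes, Foxc2 and T, and also T and Tbx6. In the 17 cells of replicate 1, Foxc1 measured 58.5 CPM, Foxc2 52.4, Tbx6 50.8, Snai1 44.7, Eomes 41.6, Mesp1 33.9, T and Gata6 21.6 each and Hand1 1.54 CPM. Few cells carried those values, since all 27 Eomes UMIs came from 2 cells and 18 of the 22 Mesp1 UMIs from 1.

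Hand1 differed most between the libraries within the class, at 329 UMIs in 80 of 143 non-elongated cells (55.9%), against 1 UMI in 1 of 17 replicate 1 cells (5.88%, exact binomial interval 0.149% to 28.7%). With every cell thinned to 10000 UMIs the shares were 34.3% of non-elongated and 5.88% of replicate 1 cells. In the hindbrain class of the non-elongated library 13 of 505 cells had Hand1 (2.57%) and 3 had Mesp1 (0.594%), at a median of 33327 UMIs per cell. There 1 cell held 11 of the 23 Hand1 UMIs, and whether the class is a clean background was not tested. In Mesenchyme 88 of 143 cells had Mesp1 (61.5%), at a median of 30763 UMIs. Gata6 and Snai1 were less restricted, with a UMI in 16.2% and 20.4% of the hindbrain cells, against 53.1% and 72.7% in Mesenchyme.

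Leaving out the Mesenchyme class brought the non-elongated library closer to replicate 1 for most genes, an alternative chosen after the data were seen. The ratio of CPM in non-elongated over replicate 1 was 2.28 for Mesp1 outside the class, against 17.3 in all cells, and 5.59 for Hand1, against 19.9. For Foxc1 and Foxc2 it was below 1 outside the class, at 0.826 and 0.771, against 2.52 and 2.75 in all cells. The ratio of T was 2.10 outside, against 2.91, and that of Nkx1-2 was 2.21, against 2.09. Over the 10 genes the median ratio was 1.96 outside the class, against 3.19 in all cells, and these ratios of 2 libraries have no replicate check.

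**Figure D2:**
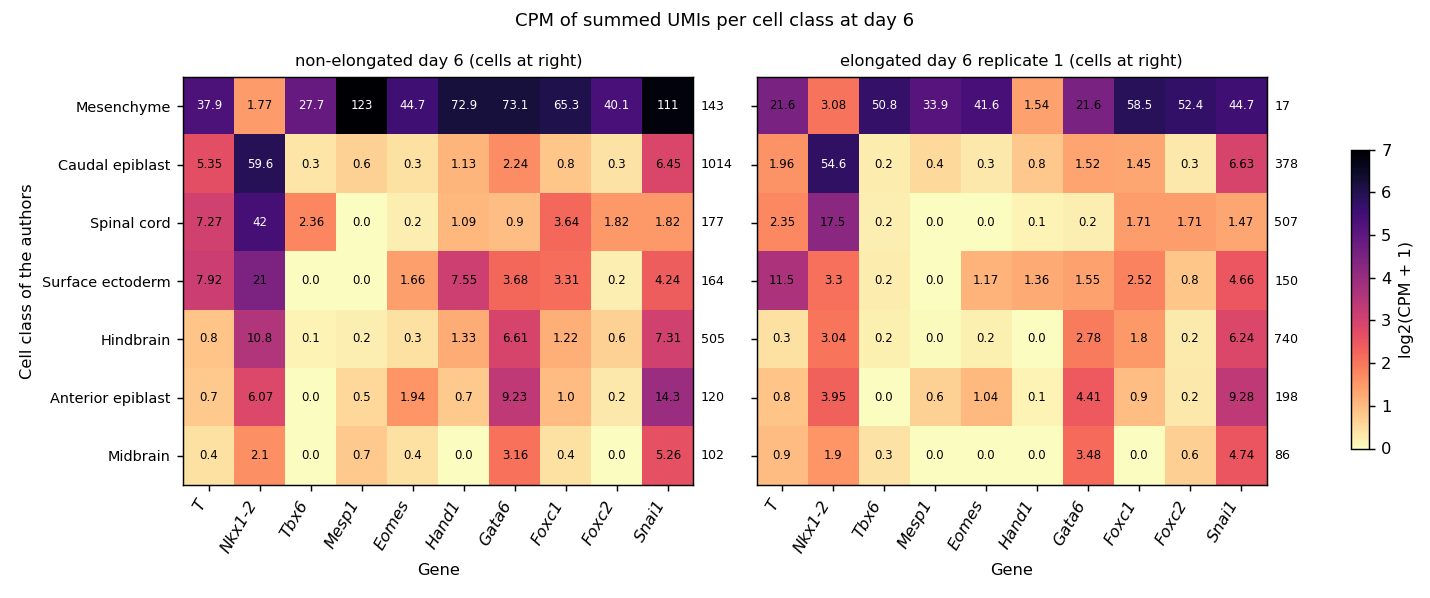
CPM of summed UMIs of each gene (columns) in each cell class of the authors (rows) for the non-elongated library (left) and elongated replicate 1 (right); colour shows log2(CPM + 1), printed values are CPM, and the number of cells stands at the right of each row. Nkx1-2 is darkest in the caudal epiblast row, at 59.6 and 54.6 CPM, and the other 9 genes are darkest in the Mesenchyme row, where Hand1 stands at 72.9 and 1.54 CPM.

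Nkx1-2 belonged to the caudal epiblast class. There it measured 59.6 CPM with a UMI in 71.7% of 1014 non-elongated cells, against 54.6 CPM in 62.4% of 378 replicate 1 cells, with overlapping counting intervals. The class made up 45.6% of non-elongated cells, against 18.2% of replicate 1 cells. In the spinal cord class the gene measured 42.0 CPM in non-elongated cells, against 17.5 CPM in replicate 1, and in surface ectoderm 21.0 CPM, against 3.30 CPM. In replicate 2, whose table has no caudal epiblast class, Nkx1-2 was highest in the pre-EMT vagal/trunk neural crest class, at 48.5 CPM in 40 of 45 cells.

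Caudal epiblast cells with Nkx1-2 carried more of the posterior genes Hoxb9 and Cdx2. Both were named after the values of the split were seen, and other posterior genes are not given here. In the non-elongated library cells with a UMI of Nkx1-2 held 47.1 CPM of the trunk Hox gene Hoxb9, against 18.4 CPM in cells without it, and 180 against 95.2 CPM of Cdx2. In replicate 1 the same split gave 107 against 27.9 CPM for Hoxb9 and 189 against 30.7 CPM for Cdx2. Cells with Nkx1-2 were also deeper, with medians of 34192 against 29158 UMIs in the non-elongated library and 42533 against 35988 in replicate 1, and the part of depth was not tested.

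T was spread over several classes. In the non-elongated library it measured 37.9 CPM in Mesenchyme, 7.92 in surface ectoderm, 7.27 in spinal cord and 5.35 in caudal epiblast. In replicate 1 it measured 21.6, 11.5, 2.35 and 1.96 CPM in the same classes, so surface ectoderm was the class with the higher value in replicate 1. Of 20 non-elongated cells with at least 5 UMIs of T, a limit chosen after the values were seen, 9 were in caudal epiblast, 8 in Mesenchyme, 2 in surface ectoderm and 1 in spinal cord. Replicate 1 had 5 such cells, 4 in surface ectoderm and 1 in Mesenchyme, and the 4 held 52 of the 59 T UMIs of that class.

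Those 4 surface ectoderm cells of replicate 1 held genes of several lists at higher levels than the 140 cells of the class without T. Summed over lists, surface ectoderm and epithelium genes measured 7872 against 872 CPM, primitive streak genes 549 against 8.75 CPM, endoderm genes 437 against 16.9 CPM, notochord and node genes 297 against 6.66 CPM and midbrain genes 156 against 9.37 CPM. Neural crest genes ran the other way, at 22.2 against 75.2 CPM. Foxa2 is on both the endoderm list and the notochord and node list, so its UMIs count in both sums. All 4 held Foxa2, a factor of node, notochord and endoderm, at 133 CPM, against 0.208 CPM in the 140 cells without T, and Foxj1, a factor of motile cilia, at 111 CPM, against 0.833 CPM. All 4 also held the signal genes Nodal at 119 CPM, against 0.208 CPM, and Fgf8 at 704 CPM, against 5.42 CPM. The 9 caudal epiblast cells of the non-elongated library with at least 5 UMIs of T had a different setting. They held Fgf8 at 498 CPM, against 24.0 CPM in the 905 cells of the class without T, Sox2 at 13.6 against 56.3 CPM and Nkx1-2 at 61.4 against 57.2 CPM, and they held 0 UMIs of Foxa2 and Nodal.

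Co-detection was read after thinning every cell to 10000 UMIs. Over the whole non-elongated library T and Nkx1-2 were found together in 27 cells, where the product of their shares gives 26.5. Of the 552 cells with Nkx1-2, 549 lay outside Mesenchyme, as did 70 of the 107 with T. The product for this pair therefore mixes classes that differ, and it does not show that the genes are independent within a class. T and Tbx6 were found together in 14 cells, where it gives 1.88, and Foxc1 and Foxc2 in 24, where it gives 1.88. A product over a whole library treats all classes alike, so the pairs were also read inside the Mesenchyme class.

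Inside the 143 non-elongated Mesenchyme cells, pairs among Mesp1, Eomes, Hand1 and Gata6 shared more cells than the product of their shares. Tbx6 and Gata6 shared fewer. By level, Hand1 differed little between cells with and without Eomes, at 78.4 against 70.0 CPM with overlapping counting intervals. Of 45 pairs of the 10 genes, 33 stayed on the same side of the product without thinning. With thinning to 5000 UMIs it was also 33 of 45. Mesp1 and Eomes shared 19 cells, where the product gives 10.6, and without thinning 40, where it gives 27.7. Eomes and Gata6 shared 19, where it gives 10.4, and without thinning 38, where it gives 23.9. Foxc1 and Foxc2 shared 24, where it gives 18.8. The opposite case was Tbx6 and Gata6, which shared 3 cells, where it gives 9.40, and without thinning 21, where it gives 30.3. Of the 143 cells 28 (19.6%) held at least 5 of the 10 genes after thinning and 83 without it. Of 1014 caudal epiblast cells 0 held 5, which allows a share of up to 0.296%. All these cells come from 1 library, so the counts have no replicate and no test.

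**Figure D3:**
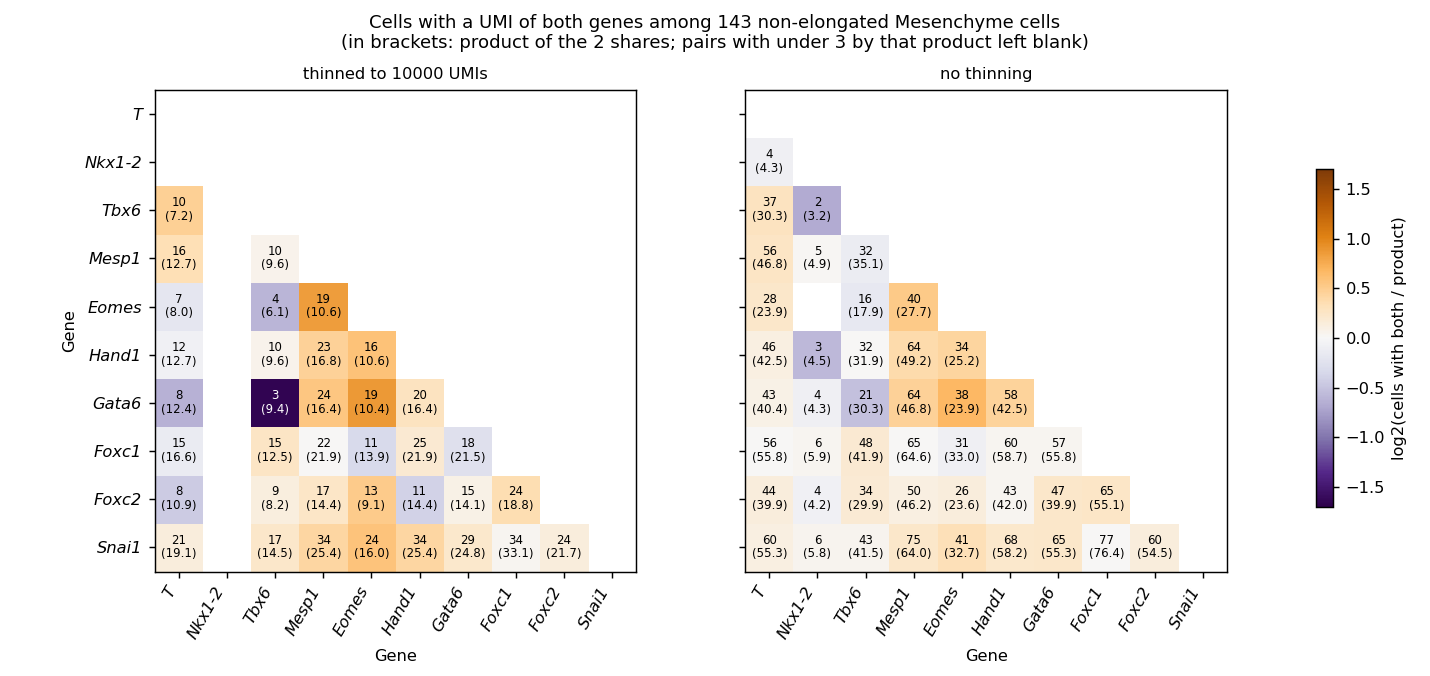
Number of non-elongated Mesenchyme cells (of 143) with a UMI of both genes of a pair, with the product of the 2 shares in brackets, after thinning to 10000 UMIs per cell (left) and without thinning (right); colour is log2 of cells over product, orange for more and violet for fewer. Mesp1, Eomes, Hand1 and Gata6 are orange with each other in both panels, and Tbx6 with Gata6 is the darkest violet on the left, at 3 cells.

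A split of the class by Gata6 showed members that differ. The 76 cells with a UMI of Gata6 held 178 CPM of Mesp1, against 45.3 CPM in the 67 cells without it, 67.9 against 12.3 CPM of Eomes, 101 against 33.6 CPM of Hand1 and 149 against 57.5 CPM of Snai1. Tbx6 ran the other way, at 15.2 against 45.3 CPM, while T at 35.6 against 41.0 CPM and Foxc1 at 62.6 against 69.3 CPM had overlapping counting intervals. Beyond the set, cells with Gata6 held 28.8 against 1.07 CPM of the head factor gene Otx2 and 224 against 59.1 CPM of Lhx1. Trunk Hox genes were lower with Gata6, at 11.8 against 132 CPM for Hoxb9 and 3.41 against 55.9 CPM for Hoxc8. Cells with Gata6 had a median of 31978 against 27385 UMIs, and the part of depth was not tested.

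The cells with Hand1 and the cells with Tbx6 overlap, and different genes are given here for each split. Hand1 measured 83.8 CPM in cells with Tbx6, against 65.7 CPM without it, with overlapping counting intervals. Tbx6 measured 19.9 CPM in cells with Hand1, against 39.4 CPM without it. Cells with Hand1 had a median of 31995.5 against 28464 UMIs, and the part of depth was not tested. The 80 cells with Hand1 held 33.2 CPM of Foxf1, a factor of lateral plate mesoderm, against 6.67 CPM in the 63 cells without it, 41.6 against 9.44 CPM of Isl1, a factor of the heart fields, and 20.3 against 124 CPM of Hoxb9. The 57 cells with Tbx6 held 101 CPM of the Notch ligand gene Dll1, against 40.8 CPM in the 86 cells without it, 172 against 93.3 CPM of Dll3 and 35.7 against 14.7 CPM of Hes7, a gene of the segmentation clock. Mesp1 and Tbx6 gave no single direction, since Mesp1 measured 164 against 95.8 CPM in cells with and without Tbx6, while Tbx6 measured 20.7 against 40.7 CPM in the 88 cells with and the 55 without Mesp1. After thinning they shared 10 cells, where the product of their shares gives 9.59.

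Over 40 units of class and library, the genes outside the set most like Mesp1 by Pearson correlation of their levels were Gata4 (r 0.936), Aplnr (0.925), Hand2 (0.901), Rgs5 (0.890), Amhr2 (0.885). For Hand1 they included Rgs5 (r 0.884), Asb4 (0.879), Gata4 (0.850), Gsc (0.848). For T they were Acta2 (r 0.871), Tgfb1 (0.867), Gm45889 (0.855), Clu (0.854), Pdlim3 (0.835), and for Foxc2 Aplnr (r 0.856), Rasgrp3 (0.828), Col13a1 (0.824), Rgs5 (0.823), Gm45889 (0.820). Genes were kept if they reached 10 CPM in some unit, and all of these were highest in the non-elongated Mesenchyme class. Some peaked there just above that limit, such as Hand2 (11.1 CPM), Rgs5 (11.3) and Amhr2 (12.0). A high r with a member that peaks in the same unit is therefore set in part by this choice and by 1 class of 1 library. Units of 1 library share its depth and 10691 genes were compared, so the values are descriptions.

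In elongated organoids Nkx1-2 was called lower at day 7. It measured 17.8 and 7.95 CPM in the day 6 replicates, 0.0666 CPM at day 7, 0 UMIs at day 8 and 0.100 CPM at day 10. Its log2 difference of day 7 over day 6 was -7.57 ± 0.78 (edgeR adjusted p 0.00412), and it was the only 1 of the 10 called by edgeR with TMM scaling, where 2.09% of all genes were called lower, 1.9% higher and 3.99% in either direction. RLE scaling and DESeq2 also called T and Gata6 lower at day 7, where DESeq2 called 6.9% and RLE scaling 5.42% of genes in either direction. At day 8 Nkx1-2 was at least 511-fold lower than the day 6 mean, with 0 UMIs taken as up to 3 in the library, and at least 315-fold lower than replicate 2 alone (edgeR adjusted p 9.45e-04). Each later day is 1 library, and the comparisons of days 7, 8 and 10 and of non-elongated organoids all share the elongated day 6 libraries.

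At day 8, 7 of the 10 genes were called lower and 0 higher, where 6.64% of all genes were called lower, 6.74% higher and 13.4% in either direction. DESeq2 called the same 7, where it called 15.9% of genes. T measured 2.23 and 0.517 CPM in the day 6 replicates, 0.0666 CPM at day 7, 0.0168 CPM at day 8 and 0 UMIs at day 10. It was 81.7-fold lower at day 8 from 2 UMIs (counting interval 22.6 to 675, edgeR adjusted p 0.0192), and 30.7-fold lower than replicate 2 alone. At day 10 it was at least 45.8-fold lower than the day 6 mean (adjusted p 0.00854) and at least 17.2-fold lower than replicate 2. Snai1 came down less, with 6.08 and 5.66 CPM in the day 6 replicates, 2.43 CPM at day 7, 1.26 at day 8 and 1.26 at day 10. Its log2 difference was -2.22 ± 0.40 at day 8 (edgeR adjusted p 0.0116). Gata6 measured 2.36 and 1.56 CPM in the day 6 replicates, 0.355 CPM at day 7, 0.109 at day 8 and 0.360 at day 10, with a log2 difference of -4.15 ± 0.63 at day 8 (edgeR adjusted p 0.00603).

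The scarcer mesoderm genes were near the detection limit by day 8. Their counts were already low in day 6 replicate 2. Its 2402 cells held 14 UMIs of Hand1, 18 of Tbx6, 20 of Mesp1, 33 of Eomes and 35 of Foxc2. At day 8 Hand1 had 0 UMIs, at least 8.21-fold lower than the day 6 mean and at least 3.93-fold lower than replicate 2 (edgeR adjusted p 0.0307). Eomes was 18.2-fold lower from 3 UMIs (counting interval 6.23 to 88.3, edgeR adjusted p 0.0417), and Foxc2 26.9-fold lower from 3 UMIs (9.20 to 130, adjusted p 0.0475). Against replicate 2 alone Eomes was 9.26-fold and Foxc2 9.82-fold lower. Neither Eomes nor Foxc2 was called with library sizes alone or with no filter on low counts. Mesp1 had 0.0672 CPM at day 8, against 0.479 and 0.142 CPM in the day 6 replicates (edgeR adjusted p 0.158). Tbx6 had 0.126 CPM at day 8, against 0.616 and 0.127 CPM (adjusted p 0.371). Foxc1 had 0.412 CPM at day 8, against 2.18 and 1.24 CPM, and missed the threshold (adjusted p 0.0599), which it passed with RLE scaling (0.0433), where 15.4% of genes were called. Against replicate 2 alone, which shares a table with the later days, the log2 difference of Tbx6 was 0.06 at day 7 and 0.93 at day 10, and that of Foxc1 at day 7 was 0.01.

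At day 10, 6 genes were called lower, Nkx1-2, T, Mesp1, Foxc2, Snai1 and Gata6, and 0 higher, where 12.3% of all genes were called lower, 14.1% higher and 26.4% in either direction. DESeq2 called the same 6, where it called 28.6% of genes. Mesp1 had 0 UMIs, at least 10.3-fold lower than the day 6 mean and at least 4.71-fold lower than replicate 2 (edgeR adjusted p 0.0163). Foxc2 had 0 UMIs too, at least 22.6-fold and at least 8.25-fold lower (adjusted p 0.0154). Eomes, Hand1, Foxc1 and Tbx6 did not pass, with Tbx6 at 0.260 CPM at day 10. The median log2 difference of the 10 genes was -2.33 at day 7, -4.12 at day 8 (-3.57 with the 2 genes at 0 UMIs set to their bound) and -2.55 at day 10 (-2.55 also with the 3 genes at 0 UMIs set to their bound), beside -0.0058, -0.0045 and -0.01 over all genes.

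A slope over day in the 5 elongated libraries was called lower for 3 genes, T (edgeR adjusted p 0.0118), Foxc2 (0.0200) and Snai1 (-0.58 ± 0.15 log2 per day, adjusted p 0.0403), where 12.5% of all genes were called lower, 11.3% higher and 23.8% in either direction. DESeq2 called Mesp1 as well, where it called 35.9% of genes. Without replicate 1 edgeR called 1723 genes by slope and 0 of the 7 members tested, and without replicate 2 it called 0 genes (4852 with an unadjusted p under 0.05) and 0 of 7. Of the 12 caudal progenitor genes 8 were called lower at day 7, 9 at day 8 and 9 at day 10, when 1 was called higher (Wnt3a, log2 difference 3.23 ± 0.72). Over all genes 2.09%, 6.64% and 12.3% were called lower on those days. Of the primitive streak list 2, 1 and 3 of 9 were called lower on those days, and of the paraxial list 1, 2 and 3 of 11. Other genes of these lists were called higher, 2 of 9 streak genes at day 10 (Lhx1, log2 difference 5.30 ± 0.36, and Wnt3, 2.61 ± 0.36) and 3 of 11 paraxial genes at day 8 (Uncx, 4.98 ± 0.41, among them), so these lists did not move in 1 direction. Of 11 lateral plate, cardiac and extraembryonic genes 2 were called higher and 3 lower at day 10, with Isl1 at 3.09 ± 0.57. The class names shared by replicate 2 and days 7, 8 and 10 include no Mesenchyme class. Its absence on the later days is therefore no sign of a loss. Day 10 held 435, 374 and 367 cells of the dorsal interneuron classes dI1, dI2 and dI3. Which classes carried Lhx1, Uncx and Isl1 was not tested, so their rise is not a rise of mesoderm shown here. Cdx2 measured 45.0 and 7.68 CPM in the day 6 replicates, 0.0814 CPM at day 7 and 0 UMIs at days 8 and 10.

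Foxc1, Foxc2 and Snai1 were found in neural crest classes of the elongated organoids. In the pre-EMT cranial neural crest class Foxc1 measured 27.2 CPM in 52 cells of day 6 replicate 2, 10.4 CPM in 133 cells of day 7, 0.985 CPM in 76 cells of day 8 and 6.76 CPM in 255 cells of day 10. Foxc2 measured 8.47, 2.87 and 0.328 CPM there at days 6, 7 and 8 and had 0 UMIs at day 10. Both were lowest at day 8 or later, and in the mid/hindbrain class of replicate 2 Foxc1 measured 0.519 CPM. Snai1 reached 23.1 CPM in the migratory cranial neural crest class at day 7. There 24 of 37 cells had a UMI (64.9%, median 70526 UMIs), against 7.02% of 2108 mid/hindbrain cells (median 48738 UMIs). Of the 59 Snai1 UMIs of the migratory class at day 7, 21 came from 2 cells. At day 8 that class held 6 Snai1 UMIs in 2 of 7 cells. At day 10 it held 3 in 2 of 56 cells.

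The Foxc1 cells of the pre-EMT cranial class in replicate 2 carried somite genes. Of its 52 cells 14 had a UMI of Foxc1, and these held 253 CPM of Tcf15, against 2.04 CPM in the 38 cells without it, 141 against 1.53 CPM of Meox1 and 42.3 against 0.511 CPM of Uncx, all factors of somites. All 24 Foxc2 UMIs of the class lay in 6 of the 14 cells. Hoxb9 measured 161 against 9.71 CPM. Genes of epithelia and of neural cells ran the other way, with Epcam at 28.6 against 285 CPM, Krt8 at 195 against 821 CPM and Sox2 at 13.7 against 101 CPM. Summed over lists, the paraxial mesoderm and somite genes measured 519 against 35.3 CPM, the mesenchyme and epithelial-mesenchymal transition genes 718 against 345 CPM and the neural crest genes 173 against 57.2 CPM. Of the crest list Pax3 was higher with Foxc1, at 81.2 against 13.8 CPM, and Ets1 had 35 UMIs in the 14 cells, against 9 in the 38 without it, while Sox10 had 0 UMIs and Foxd3 1 UMI in the 14 cells.

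On later days the mesenchyme and somite lists differed less between cells with and without Foxc1. At day 7 the mesenchyme list measured 988 against 974 CPM and the somite list 54.4 against 33.5 CPM, and at day 10 2230 against 1647 CPM and 17.2 against 21.5 CPM, so the mesenchyme list was nearly level at day 7 and the somite list was lower with Foxc1 at day 10. The 31 day 7 cells with Foxc1 held 28.7 CPM of Tcf15, against 4.95 CPM in the 102 cells without it, 102 against 43.8 CPM of the mesenchymal factor gene Twist1 and 20.9 against 3.43 CPM of Snai1, while Vim ran the other way at 412 against 555 CPM. The 17 day 10 cells with Foxc1 held 177 CPM of Prrx1, a factor of mesenchyme, against 6.75 CPM in the 238 cells without it and 37.8 against 0.405 CPM of Snai1. Cells with Foxc1 had medians of 60458 against 49504.5 UMIs in replicate 2, 60943 against 47854.5 at day 7 and 26359 against 28890 at day 10, and no doublets were called, so their part was not tested.

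**Figure D4:**
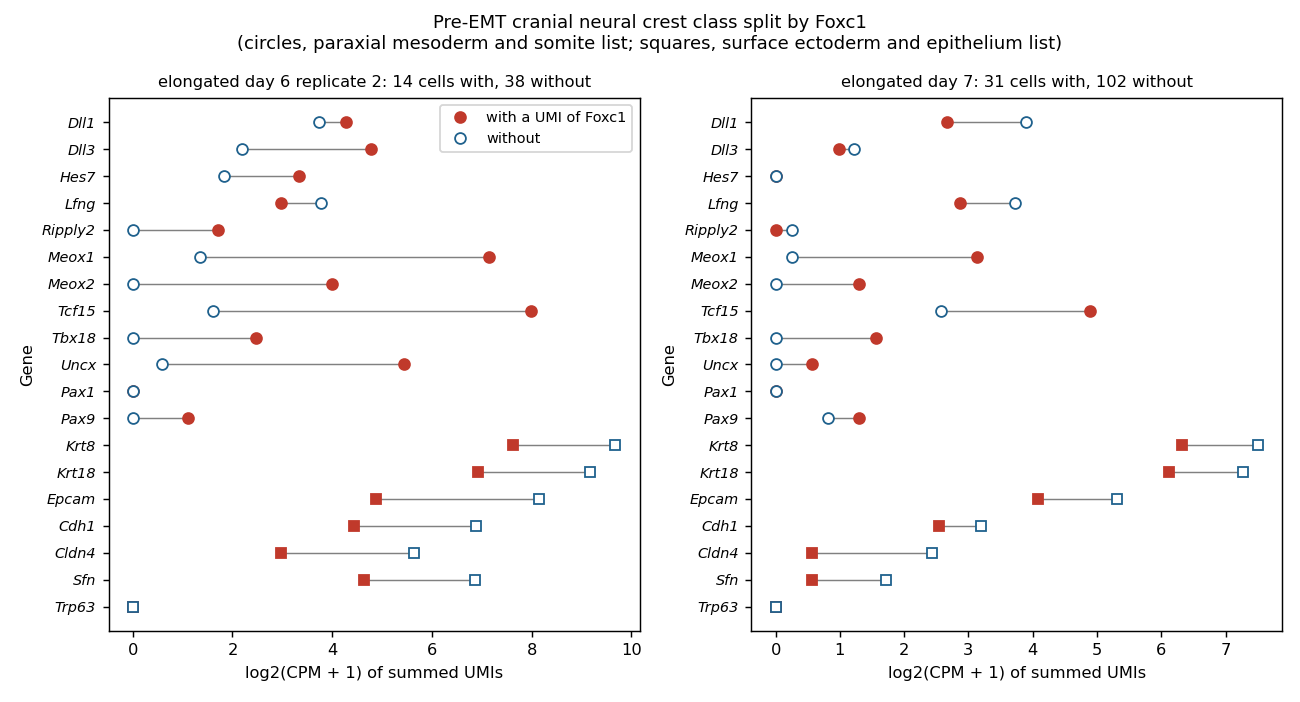
log2(CPM + 1) of summed UMIs for genes of the paraxial mesoderm and somite list (circles) and the surface ectoderm and epithelium list (squares) in pre-EMT cranial neural crest cells with a UMI of Foxc1 (filled red) and without it (open blue), in elongated day 6 replicate 2 (left) and day 7 (right). Meox1 and Tcf15 lie furthest to the right of their open points on the left, and the 6 detected epithelial genes lie to the left of theirs in both panels.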

How the data were processed

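The authors deposited whole-number UMI counts per gene and cell in a pair of tables with their cell classes and, as deposited by the authors, the percent of each cell's UMIs from mitochondrial genes. Per the submitters' processing notes the reads went through Cell Ranger 3.1 with build mm10. Cells were used as deposited, no doublets were called or removed here, and no step was taken against free RNA. The members and lists were chosen with earlier results of these data known. UMIs were summed per library for 16282 cells in 6 libraries and tested with edgeR 4.0.16 (quasi-likelihood, TMM scaling, genes kept by filterByExpr with a minimum count of 10, Benjamini-Hochberg adjustment), with 5 group means, or a slope over day in 5 elongated libraries. With 2 replicates in 1 group only, 1 residual degree of freedom was left in the fit of group means. The p-values of that fit rest on the spread of those 2 samples, which may be technical. The slope fit left 3 residual degrees of freedom, which also take in departures of single later libraries from a straight line. DESeq2 1.42.0, RLE scaling, library sizes alone and no filter were alternatives. Named genes are the 10 members, genes of the lists, the 5 most alike genes of a member (1 of those of Hand1 is not reported here), and genes named after their values were seen (the splits by T, Nkx1-2, Gata6, Hand1, Tbx6 and Foxc1). For co-detection each cell was thinned to 10000 UMIs, and 44 cells below that were left out. The test was checked on simulated counts with less spread than these data (common dispersion 0.0872) and no difference between batches. That check therefore does not cover the spread between the 2 day 6 replicates.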

Additional observations from a re-analysis of the deposited data

How the results depend on the processing

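No paired analysis was possible because the groups compared share fewer than 2 replicate numbers, since only elongated day 6 has more than 1 library. For non-elongated over elongated organoids, DESeq2 called 126 genes and 2 members, and RLE scaling 21 genes and 2 members, against 0 and 0 with TMM. At day 7 DESeq2 called 985 genes and 3 members, and RLE scaling 887 genes and 3 members. For the slope over day DESeq2 called 5967 genes, and leaving out a day 6 replicate gave 0 to 1723 genes and 0 to 0 members. The slope of Tbx6 was 0.26 without replicate 1 of elongated day 6, the reverse of its sign with all libraries, and -0.25 without replicate 2, and without the Mesenchyme class the ratio of non-elongated over replicate 1 was 0.826 for Foxc1 and 0.771 for Foxc2; the cause was not tested. With DESeq2, RLE scaling, library sizes alone or no filter, 50 of 50 member values kept their sign. Without replicate 1 as the reference 37 of 40 did, and without replicate 2, 40 of 40. Gene counts of the group comparisons could not be had without a replicate, since no residual degree of freedom is left. Counts of 0 to 3 UMIs limit what can be said of T, Nkx1-2, Hand1, Eomes, Mesp1 and Foxc2 at day 8 or day 10.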

Other observations

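Genes chosen after their values were seen add to the 4 surface ectoderm cells of elongated day 6 replicate 1 with at least 5 UMIs of T. Cfap126, a gene of motile cilia, was found in 2 of the 4, at 222 CPM, against 1.25 CPM in the 140 cells of the class without T. Dnajb13, a gene of the ciliary axoneme, was found in 3, at 81.5 CPM, against 0.417 CPM, and Cfc1, a cofactor of Nodal signalling, in 3, at 141 CPM, against 1.25 CPM. In the 9 non-elongated caudal epiblast cells with at least 5 UMIs of T, Rspo3, a Wnt agonist, measured 245 CPM, against 8.35 CPM in the 905 cells without T. Each set comes from 1 library and has no test.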
